A study of Homo sapiens with 6 samples.

Results

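CD44, CD24, PROM1, CD82 and TSPAN1 are 5 of the 770 genes on the NanoString PanCancer Progression Panel, and were taken from the deposited value table by gene symbol. All 5 transcripts differed between HCT116 p21-/- and HCT116 WT cells, as did 47.8% of the panel (limma adjusted p below 0.05). CD44, PROM1, CD82 and TSPAN1 were lower in p21-/- cells, PROM1 down to the detection floor, and CD24 was higher. The CD44 to CD24 ratio of a sample averaged 10.8 ± 0.939 in WT and dropped to 1.68 ± 0.180 in p21-/- cells (SD, n = 3 each).

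HCT116 is a human colorectal carcinoma cell line, and HCT116 p21-/- is a derivative with a disrupted CDKN1A, the gene of the cell cycle inhibitor p21. Untreated cells of each line were harvested as 3 biological replicates (WT replicates 1 to 3 and p21-/- replicates 1 to 3), and 100 ng of total RNA per sample was counted by gene-specific barcodes without amplification. The labels speak of knockout clones without saying which or how many, so the disruption and other differences acquired by the p21-/- cells cannot be told apart. Per the methods, WT cells came from ATCC and p21-/- cells from another laboratory, so source and genotype cannot be told apart either. The methods also give DMEM for p21-/- cells and RPMI for WT cells, whereas the deposited labels give RPMI for both, and medium cannot be told apart from genotype if the methods hold.

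CD44 is a cell surface receptor for hyaluronan, and CD24 is a small, heavily glycosylated protein held in the membrane by a lipid anchor. PROM1 encodes CD133, a glycoprotein of membrane protrusions. All 3 are used, alone or in combination, to sort tumor-initiating cells from colorectal tumors, although none is specific to stem cells. Tetraspanins such as CD82, also known as the metastasis suppressor KAI1, and TSPAN1 cross the membrane several times and gather integrins, growth factor receptors and proteases into membrane microdomains.

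The bases just upstream of the annotated start are shown for the members that fell furthest and whose listed start is also the outer end of the gene in RefSeq (GRCh38.p14), since these transcripts moved in the same direction. They are the 250 bases before the start of CD44 (chr11:35138921-35139170, plus strand), PROM1 (chr4:16084024-16084273, minus strand) and TSPAN1 (chr1:46174837-46175086, plus strand), written 5′ to 3′. Capitals mark the E2-box letters CAGGTG or CACCTG, which SNAI and ZEB family proteins can bind, and the GC box letters GGGCGG or CCGCCC.
CD44: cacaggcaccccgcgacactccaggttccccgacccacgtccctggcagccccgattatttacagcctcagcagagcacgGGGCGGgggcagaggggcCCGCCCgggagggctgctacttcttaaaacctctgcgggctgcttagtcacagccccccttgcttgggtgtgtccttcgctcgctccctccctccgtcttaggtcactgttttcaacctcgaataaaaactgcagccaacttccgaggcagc
PROM1: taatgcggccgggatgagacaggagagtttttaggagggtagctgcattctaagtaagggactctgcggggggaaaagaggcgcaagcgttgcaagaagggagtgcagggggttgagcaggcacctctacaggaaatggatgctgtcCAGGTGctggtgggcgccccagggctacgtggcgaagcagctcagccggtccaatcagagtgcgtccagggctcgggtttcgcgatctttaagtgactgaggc
TSPAN1: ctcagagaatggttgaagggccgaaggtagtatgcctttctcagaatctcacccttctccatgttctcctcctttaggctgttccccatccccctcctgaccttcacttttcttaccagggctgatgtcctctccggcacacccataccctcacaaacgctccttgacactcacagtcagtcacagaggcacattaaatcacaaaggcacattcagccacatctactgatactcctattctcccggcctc
The PROM1 window held 1 E2-box, 103 bases before the start, and no GC box. The CD44 window held 2 GC boxes, 170 and 152 bases before the start, and the TSPAN1 window neither motif. Of 34788 distinct windows of this length in the RefSeq table, 17.5% held an E2-box and 42.6% a GC box on either strand, so these letters are common. The match describes letters in a window and not binding, and neither of these motifs was present in all 3 windows. Among the windows not printed, an E2-box lay before 2 of the remaining 3 PROM1 starts. An E2-box also lay before 1 of 3 starts of CD24, the member that rose. GC boxes in the windows not printed numbered 4 for CD82, 2 for CD24 and 1 for PROM1. The listed starts of CD24 and CD82 are not the outer ends of those genes.

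Values are counts that the authors normalized in the nSolver software. Values below background stand at a floor set per sample, 29.8 to 34.9 in WT and 25.7 to 33.8 in p21-/- samples. Unfloored values below 500 came out as whole counts, within 0.1 count, when divided by a factor per sample, and division by this factor gave totals of 867421 to 1187904 barcode counts in WT and 1125126 to 1335467 in p21-/- samples. The positive controls, left unscaled, had geometric means of 1601 to 1861 in WT and 1102 to 1261 in p21-/- samples, and their part in the results was not tested. CDKN1A, the disrupted gene, was at 8.90% of its WT mean in p21-/- cells. In limma over all 770 genes, 47.8% passed a Benjamini-Hochberg adjusted p of 0.05, 21.8% higher and 26% lower in p21-/- cells, and the values of the lines did not overlap for 52.2%. This balance of 168 higher and 200 lower genes became 251 and 169 after median scaling, 214 and 155 after quantile normalization, 97 and 523 after scaling to housekeeping candidates, and 168 and 392 with the floor at its upper bound. Against this background a call on any single member is common, and the sizes of the changes carry the description.

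In WT cells CD44 stood at 6960, 7497 and 9139 normalized counts (replicates 1 to 3), against 2707, 2649 and 2522 in p21-/- cells. The lowest WT sample was 2.57-fold above the highest p21-/- sample. The log2 fold change was -1.57 (SE 0.0984, limma adjusted p = 1.2e-09), 2.98-fold lower in p21-/- cells. CD44 remained well measured in p21-/- cells, with 2509 to 2911 barcode counts per sample, 80.0 to 103 times the floor. In RNA of whole cultures, fewer cells with the transcript and less transcript per cell cannot be told apart. The study's Western blots showed a gain of CD44 and a loss of CD133 protein in HCT116 p21-/- cells. The fall of the CD44 transcript is thus not a measure of its protein.

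PROM1 had 805, 1038 and 1117 normalized counts in the WT samples, or 534, 924 and 955 barcode counts. In the p21-/- samples it was at the floor, at 33.8, 25.7 and 31.4. No p21-/- sample gave a measured level, so the change is a bound, at least 31.6-fold lower in p21-/- cells. The limma adjusted p of 9.2e-13 takes the floor values as measured, so it does not cover the spread of PROM1 in p21-/- cells. Only 10 of 770 genes passed the floor in every WT sample and in no p21-/- sample. The WT mean of PROM1 was 986 ± 162 normalized counts (SD, n = 3).

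CD24 moved the other way. WT replicates 1 to 3 gave 604, 771 and 822 normalized counts, against 1436, 1636 and 1636 for p21-/- replicates 1 to 3. The lowest p21-/- sample was 1.75-fold above the highest WT sample. The log2 fold change was 1.11 (SE 0.117, limma adjusted p = 6.88e-07), a 2.16-fold rise, which ranked 38 by size among the 168 genes called higher. It was 0.73 after scaling to housekeeping candidates, the smallest value under any alternative.

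In WT cells TSPAN1 stood at 348, 379 and 553 normalized counts (replicates 1 to 3), against 124, 125 and 115 in p21-/- cells. Its log2 fold change was -1.78 (SE 0.175, limma adjusted p = 3.02e-07), 3.43-fold lower in p21-/- cells. The lines did not overlap, and the p21-/- samples, with 115 to 137 barcode counts, were at least 3.66 times the floor. TSPAN1 ranked 44 by size among the 200 genes called lower, ahead of CD44 at 53 and CD82 at 67.

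CD82 was measured at low counts in both lines. WT replicates 1 to 3 gave 94.9, 97.7 and 154 normalized counts, against 45.3, 47.3 and 38.9 for p21-/- replicates 1 to 3. The log2 fold change was -1.35 (SE 0.201, limma adjusted p = 2.93e-05), 2.54-fold lower in p21-/- cells, and no sample overlapped. The p21-/- values rest on 42, 52 and 44 barcode counts, with exact 95% Poisson intervals of 30.3 to 56.8, 38.8 to 68.2 and 32.0 to 59.1 that cover counting error only. The highest negative control in these samples reached 33, 25 and 31 counts, so CD82 in p21-/- cells was barely above the background of the assay. With the mean of the negative controls subtracted, an alternative chosen after seeing the data, the log2 fold change was -1.87 (standard error 0.310).

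**Figure D1:**
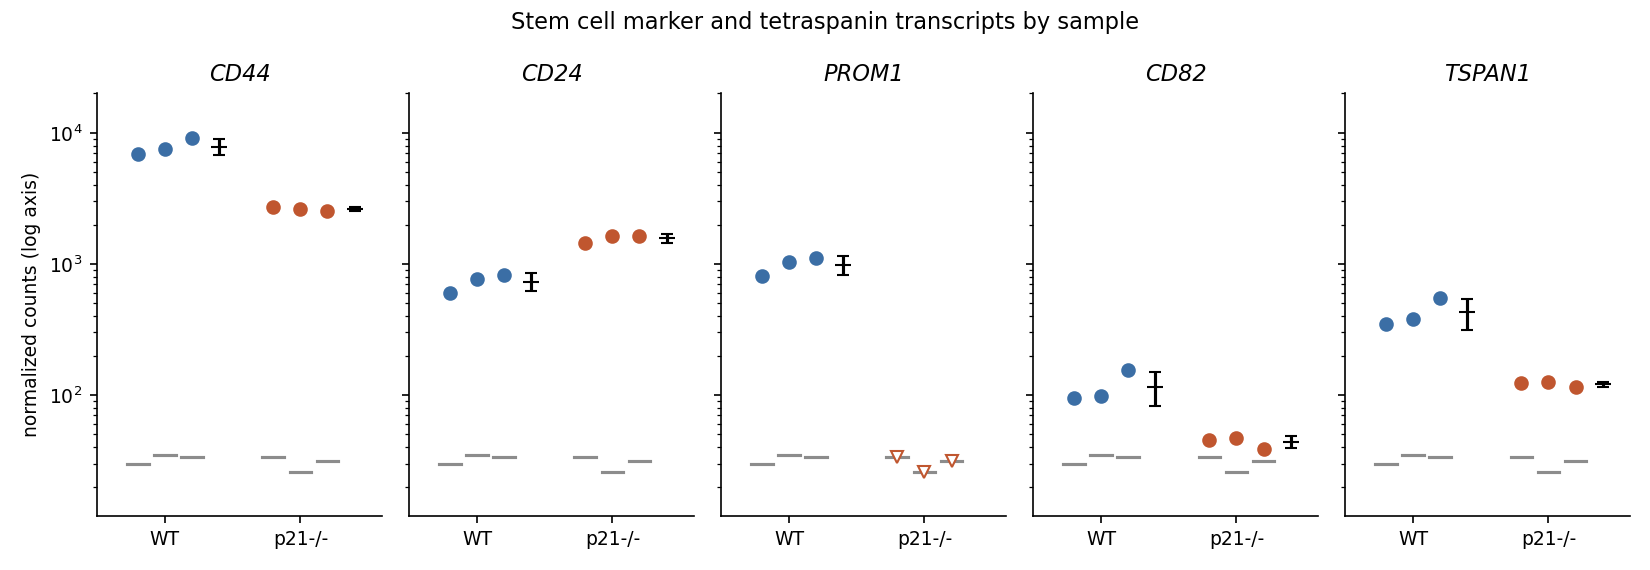
Normalized counts (log axis) of the 5 transcripts in the 3 WT (blue) and 3 p21-/- (orange) samples, replicates 1 to 3 from left to right. Grey lines mark the floor of each sample, open triangles are values at the floor, and black bars give mean ± SD (n = 3) where a line was measured. For CD24 the p21-/- samples lie above all WT samples, for the other 4 below, and CD82 in p21-/- cells lies between 38.9 and 47.3, close to the floor.

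Counting the direction over the members, 4 were called lower and 1 higher, where 26% of the panel was called lower and 21.8% higher. None of the members overlapped between the lines, where 52.2% of the panel did not overlap. CD44, CD24 and TSPAN1 also belong to the signature that the study drew from these samples, so their call is not independent of that choice. In absolute size of the fitted change TSPAN1 ranked 59 of 770, CD44 71, CD82 94 and CD24 127, and PROM1, which has only a bound, is given no rank. The plot of all panel genes shows the members other than PROM1 among many genes with changes of like size.

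**Figure D2:**
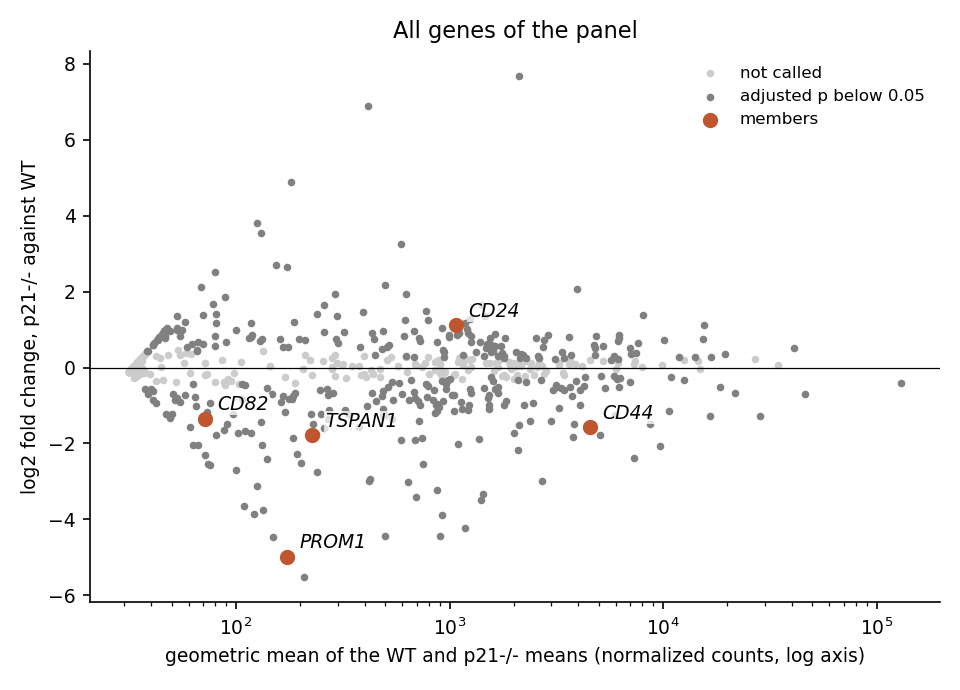
Log2 fold change of p21-/- against WT cells for the 770 panel genes, against the geometric mean of the WT and p21-/- means in normalized counts (log axis). Orange points are the members, dark grey points are genes past an adjusted p of 0.05 and light grey points are the rest, and PROM1 stands at -4.97, a value set by the floor in p21-/- cells.

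The spread between replicates was wider in WT than in p21-/- cells for CD44, CD24, CD82 and TSPAN1, as it was for 85.7% of the 446 genes that passed the floor in every sample. The coefficient of variation over WT samples was 14.4% for CD44, 15.5% for CD24, 16.5% for PROM1, 29.0% for CD82 and 25.9% for TSPAN1. In p21-/- cells it was 3.61% for CD44, 7.35% for CD24, 10.00% for CD82 and 4.46% for TSPAN1, and PROM1 gave none because all its values were at the floor. WT replicate 3 held the highest and WT replicate 1 the lowest WT value of all 5 members. Of those 446 genes, 54.0% had their highest WT value in replicate 3 and 59.0% their lowest in replicate 1, and 34.5% had both. WT replicate 1 also had the fewest barcode counts of the 6 samples.

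The transcript ratio of CD44 to CD24 within a sample compares the lines without scaling between samples, since a factor common to a sample cancels. Its absolute level depends on the probes, and only its change between the lines can be read. WT replicates 1 to 3 had ratios of 11.5, 9.73 and 11.1, and p21-/- replicates 1 to 3 ratios of 1.89, 1.62 and 1.54. The lines were far apart, with every p21-/- sample below every WT sample. The log2 ratio fell by 2.68 in p21-/- cells, a 6.41-fold lower ratio, and the closest pair of samples across the lines still differed by -2.37 on the log2 scale. The two-sided exact permutation test gave p = 0.1 (adjusted over both ratios tested, 0.1), the smallest value that 3 samples against 3 allow. With the ratio fitted in limma beside all genes, the standard error was 0.121. Of the log2 difference, 1.57 came from CD44 and 1.11 from CD24. In WT cells the log2 ratio varied less (SD 0.128) than CD44 (SD 0.203) or CD24 (SD 0.234), and WT replicate 3 was the highest WT sample for both. In p21-/- cells it varied more (SD 0.151) than CD44 (SD 0.0524) or CD24 (SD 0.108).

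The tetraspanins CD82 and TSPAN1 fell together, and their ratio differed less between the lines than that of CD44 to CD24. CD82 to TSPAN1 was 0.273, 0.258 and 0.279 in the WT samples and 0.365, 0.380 and 0.338 in the p21-/- samples. The p21-/- samples were thus higher without overlap, by 0.43 on the log2 scale (exact permutation p = 0.1, two-sided). This difference was 0.08 (exact permutation p = 0.6) with the negative controls subtracted, so it depends on how the background is treated.

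**Figure D3:**
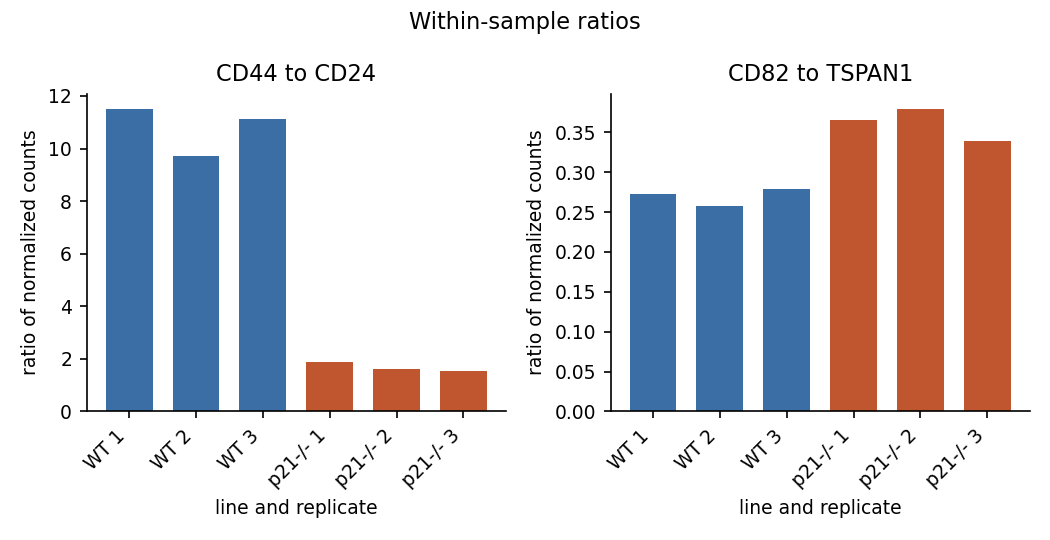
CD44 to CD24 and CD82 to TSPAN1 ratio of normalized counts in each of the 6 samples, with WT in blue and p21-/- in orange (bars start at 0). The CD44 to CD24 ratio lies between 9.73 and 11.5 in WT and between 1.54 and 1.89 in p21-/- cells, whereas the CD82 to TSPAN1 ratio differs far less between the lines.

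All 5 members kept direction and call under each of the 19 alternative settings, which are shown in the plot of settings. The lowest and highest log2 fold changes were -1.95 and -1.36 for CD44, 0.73 and 1.32 for CD24, -1.87 and -1.12 for CD82 and -2.15 and -1.46 for TSPAN1. For PROM1 the fitted value ran from -6.33 to -4.62 and depends on how floor values are treated. A linear model fitted gene by gene gave larger adjusted p-values, 0.0158 for CD82 and 0.00503 for TSPAN1.

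**Figure D4:**
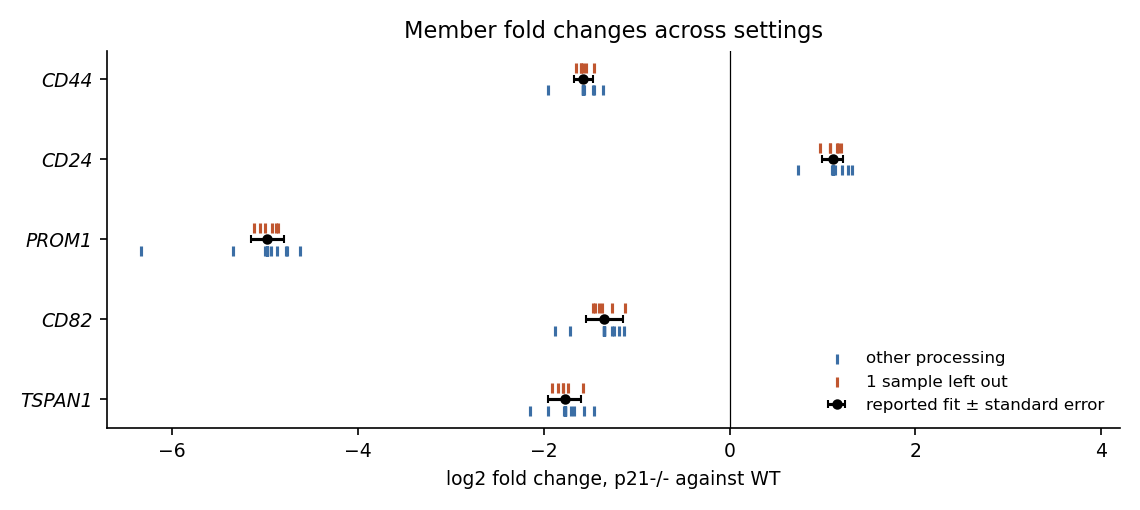
Log2 fold change of p21-/- against WT cells for each member, with black points for the reported fit and its standard error, blue ticks for other processing and orange ticks for fits with 1 sample left out. The ticks of a member stay on its side of 0, from 0.73 to 1.32 for CD24 and at or below -1.12 for the others.

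Of 13 measured genes of a stem cell marker list that includes CD44, CD24 and PROM1, 3 were called higher, 4 lower and 6 were not called, a share of 53.8% called beside 47.8% of the panel. The median log2 fold change was -0.11 against -0.12 over all genes, and both are values of genes at the floor in 5 or 6 samples, so they say nothing of measured levels. CXCR4, a chemokine receptor, had 63.3, 43.8 and 33.8 normalized counts in the WT samples, the last at the floor, and 186, 147 and 168 in the p21-/- samples. It thus rose without overlap, by a log2 fold change of 1.85 (SE 0.213, limma adjusted p = 1.84e-06), limited by the floor. ITGB1, the integrin beta 1 chain, had 15899 ± 513 normalized counts in WT against 7167 ± 162 in p21-/- cells (SD, n = 3 per line) and changed by -1.15 on the log2 scale (adjusted p = 4.28e-09).

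EPCAM, an epithelial adhesion molecule, passed narrowly with 5692 ± 377 in WT and 6612 ± 358 in p21-/- cells (log2 fold change 0.22, limma adjusted p = 0.0444). It lost the call with its direction kept under 7 alternatives and had a log2 fold change of -0.16 after scaling to housekeeping candidates, so it has no settled direction. MYC had a log2 fold change of -0.39 (adjusted p = 0.0128) but its lines overlapped, with 6181 in WT replicate 1 and 6242 in p21-/- replicate 1, and it lost the call under 5 alternatives, among them median scaling (adjusted p = 0.182) and leaving out WT replicate 3 (adjusted p = 0.0748). EPHB3, SOX9 and ITGA6 did not pass, with log2 fold changes of -0.35, 0.16 and 0.04, but each passed under some alternatives. SOX9 passed as higher after median scaling (limma adjusted p = 0.00197), quantile normalization (0.0118) and trimmed mean scaling (0.0350). ITGA6 passed as higher after median scaling (limma adjusted p = 0.00960) and quantile normalization (0.0214) and as lower after scaling to housekeeping candidates (0.00166). EPHB3 passed as lower after scaling to housekeeping candidates (limma adjusted p = 0.00400) and without WT replicate 2 (0.0260). SOX2 was at the floor in all 6 samples, and THY1 and CD34 in every WT sample and in 2 and 1 p21-/- samples. SELE, an endothelial selectin and the only measured gene of the CD24 ligand list, was at the floor in all 6 samples.

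CD82 and TSPAN1 were the only tetraspanins measured, so the family can be followed no further here. Among 17 measured genes whose products associate with tetraspanins, 10 were called lower, 1 higher (EPCAM, above) and 6 were not called, a share of 64.7% called beside 47.8% of the panel and a median log2 fold change of -0.81. The largest falls were those of CDH1, the epithelial cadherin, at -3.23 (SE 0.114, limma adjusted p = 9.2e-13), and ITGA3, the integrin alpha 3 chain, at -2.99 (SE 0.124, limma adjusted p = 9.32e-12). CLDN7, a tight junction claudin, followed at -2.17 (standard error 0.112). ICAM1, a leukocyte adhesion ligand, had 84.4, 153 and 157 normalized counts in WT samples and reached the floor in every p21-/- sample, so it was lower by at least 4.09-fold. Its change, like that of PROM1, has only a lower bound.

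Of 13 measured genes of the CD44 and hyaluronan list, 2 were called higher, 4 lower and 7 were not called, and the share called was 46.2%, close to the 47.8% of the panel. ESRP1, a splicing regulator that promotes the epithelial variant exons of CD44, had 9433 ± 706 normalized counts in WT against 2730 ± 165 in p21-/- cells (SD, n = 3 per line) and changed by -1.79 on the log2 scale (SE 0.0862, limma adjusted p = 5.4e-11). ADAM17, a protease that can shed cell surface proteins, fell by 0.72 on the log2 scale (adjusted p = 4.11e-05), and ITGB1 fell as given above. CD44 is listed as 1 value, which does not separate its splice variants. FN1, encoding the matrix protein fibronectin, rose by 0.76 on the log2 scale, with 151 ± 23.1 normalized counts in WT against 255 ± 18.5 in p21-/- cells (SD, n = 3 per line, limma adjusted p = 0.000763). SRGN, encoding the proteoglycan serglycin, sat at the floor throughout WT cells and was higher by at least 1.56-fold in p21-/- cells, at 64.3 ± 5.94 normalized counts (SD, n = 3). SPP1, encoding osteopontin, was close to the floor in WT cells and at the floor in p21-/- cells (adjusted p = 0.0122), and lost the call under 4 alternatives, among them leaving out WT replicate 3 (adjusted p = 0.0965).

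**Figure D5:**
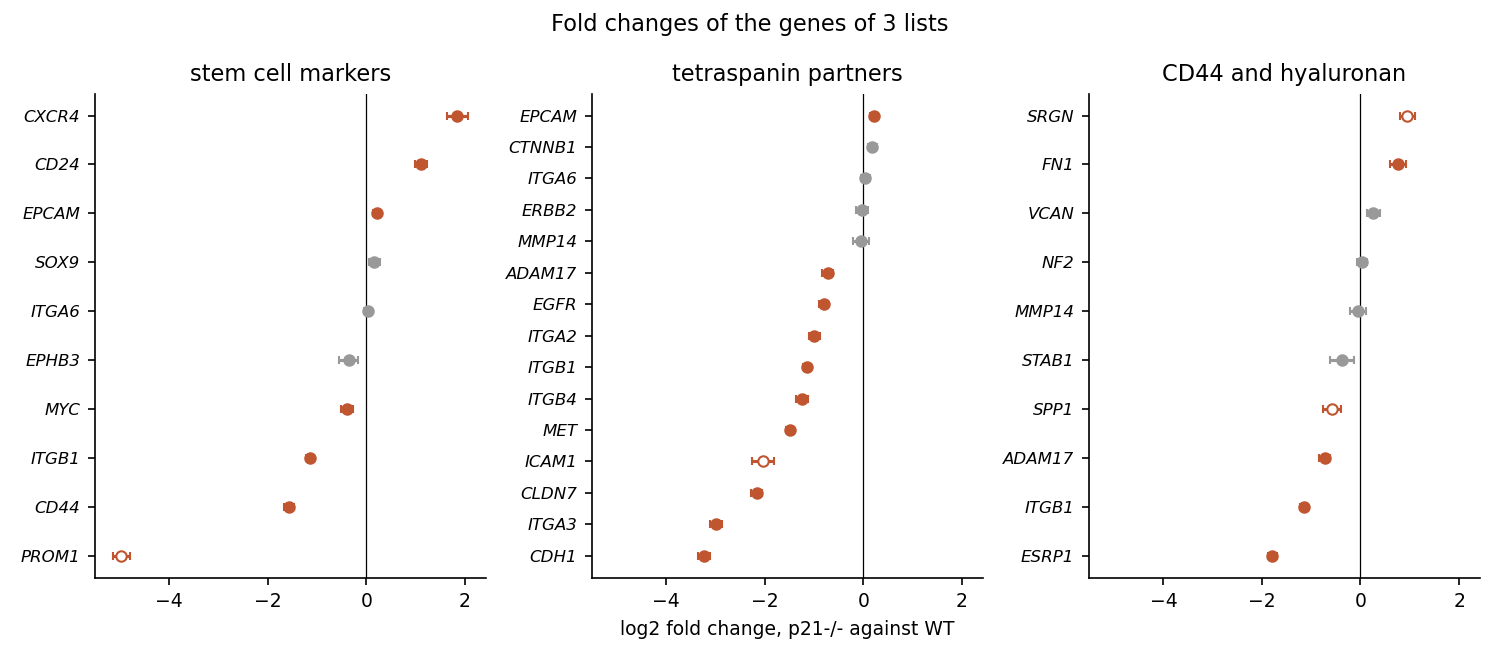
Log2 fold change of p21-/- against WT cells with standard errors for the measured genes of the stem cell marker, tetraspanin partner and CD44 and hyaluronan lists. Orange points passed an adjusted p of 0.05, grey points did not, open points were at the floor in all samples of 1 line so that their value is set by the floor, and genes that did not pass and were at the floor in 4 or more samples are left out. PROM1 lies lowest at -4.97 and CXCR4 highest at 1.85.

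The genes with profiles most like those of the members over the 6 samples were found by the root mean square difference of centred log2 values among 527 other genes above the floor in at least 3 samples. This measure follows the difference between the lines and is a description only. For CD44 they were the ephrin receptor EPHA1 (0.0644), the receptor tyrosine kinase MET (0.0918) and the claudin CLDN4 (0.0918). For CD24 they included the acetyltransferase CREBBP (0.0905) and the basement membrane proteoglycan AGRN (0.113), both higher in p21-/- cells. For TSPAN1 they were the small GTPase RAB25 (0.128), CD44 itself (0.136) and CLDN4 (0.136), and for CD82 the integrin chains ITGA7 (0.117) and ITGB4 (0.138) and the polarity protein LLGL2 (0.164). For PROM1 the rule named ITGB8, IL18 and ID2, but its p21-/- values are all floor values, so no distance is read from them.

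The labelled cell type was checked with marker lists. Of 15 measured epithelial markers, 13 were above the floor in all WT samples and 12 in all p21-/- samples, and 9 were called lower and 1 higher, a share of 66.7% called beside 47.8% of the panel. Their summed level was 39004 to 43763 normalized counts in WT and 18378 to 19287 in p21-/- samples, so it was lower in the same samples as CD44, PROM1, CD82 and TSPAN1, and its part in those results was not tested. Of 9 endothelial markers none was above the floor in any WT sample, and their sum, made almost wholly of floor values, was 268 to 314 in WT and 245 to 323 in p21-/- samples. Of 4 leukocyte markers PTPRC and ITGAM were at the floor in all 6 samples, CD163 in 5 and PRF1 in none, with sums of 195 to 305 in WT and 140 to 152 in p21-/- samples. Of 8 fibroblast markers COL1A1 alone passed the floor in every WT sample, LUM and FAP were at the floor in all 6 samples, and the sums were 418 to 477 in WT and 284 to 333 in p21-/- samples. COL1A1 was called lower, from a WT mean of 215 to 63.8 normalized counts (limma adjusted p = 2.27e-07). PDGFRB was called higher, from the floor in WT cells to 55.0, 43.7 and 52.2 in p21-/- replicates 1 to 3 (limma adjusted p = 0.00376). Its WT values are all floor values, so the rise is a bound of at least 1.22-fold.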

How the data were processed

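Gene expression in HCT116 WT (n = 3) and HCT116 p21-/- (n = 3) cells was measured with the nCounter PanCancer Progression Panel. The deposited signal is a normalized count that the authors made in nSolver with positive control and housekeeping scaling and a background floor. Control probes are listed unscaled. Samples were grouped by their titles. The study's own test needs raw counts and was not repeated. Barcode counts were recovered from values under 500 with a tolerance of 0.1 count, where 100% were whole. A count model was not run because floor values are not counts.

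Log2(value + 1) was fitted over all 770 genes with limma 3.58.1 (R 4.3.3), with an intensity trend, no covariate, no filter and two-sided Benjamini-Hochberg adjustment. The fit was checked on simulated data. Ratios were compared with an exact permutation test. A bound is the geometric mean of the measured line over that of the limits of the other line, where the limit of a sample is its floor, or the floor multiplied by its factor if that is higher. The genes named are the members, CDKN1A, the measured tetraspanins, stem cell markers and CD24 ligands, the called genes of the CD44 and hyaluronan list, the 4 largest rises and falls called among tetraspanin partners, and 3 nearest profiles per member, of which 1 is not reported here. The marker genes were named after their values were seen. The members and lists were chosen with earlier results of these data known. Promoter windows come from RefSeq, GRCh38.p14. Per the methods, culture and harvest were repeated for each replicate, with the WT replicates called independent. Intervals cover counting error only. Proteins were not analysed here.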

Additional observations from a re-analysis of the deposited data

How the results depend on the processing

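The calls and directions of the 5 members held under all 19 alternatives run. With 1 sample omitted, log2 fold changes ranged over -1.66 to -1.46 for CD44, 0.98 to 1.20 for CD24, -5.11 to -4.86 for PROM1, -1.47 to -1.12 for CD82 and -1.91 to -1.58 for TSPAN1. The number of genes past an adjusted p of 0.05 in limma was 368, between 332 and 395 with a sample left out, 620 with housekeeping candidate scaling and 560 with the floor at its upper bound. Housekeeping scaling moved the median of genes above the floor by -0.38 on the log2 scale, median scaling by 0.21, quantile normalization by 0.18 and a trimmed mean of M values by 0.11. With housekeeping scaling 11 genes of the CD44 and hyaluronan list passed instead of 6, and EPCAM, SOX9 and ITGA6 had log2 fold changes of -0.16, -0.21 and -0.34. SELE, at the floor in all samples, passed as 1 gene of the CD24 ligand list with housekeeping scaling and with the floor at its upper bound. ITGA6 had a log2 fold change of -0.0030 without WT replicate 1. The cause of these shifts was not tested beyond the scaling itself. Of the 32 housekeeping candidates, 20 were called higher and 3 lower in p21-/- cells before this scaling, a share of 71.9% beside 47.8% of the panel. Their median log2 fold change was 0.38. Over 17 genes (CDKN1A and the named genes of the lists, without uncalled genes at the floor in 4 or more samples and without the nearest profiles), 295 of 322 alternative values kept direction and call, 16 lost it, 7 gained it and 4 changed sign.

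Same-numbered samples did not deviate together over 446 genes (correlations of 0.08, -0.05 and 0.05 for replicates 1, 2 and 3), so the replicate number was not used for pairing. With the replicate number as a block, limma called 363 genes, and log2 fold changes were the same (CD82, standard error 0.206). For the CD44 to CD24 log2 ratio, the block gave -2.68 (standard error 0.152) and the fit without it -2.68 (standard error 0.121), both past 0.05 in limma. For CD82 to TSPAN1 they gave 0.43 (standard errors 0.151 and 0.103), also past 0.05, whereas the exact test of 3 samples against 3 cannot pass. With a sample left out, the ratio differences were -2.77 to -2.62 and 0.39 to 0.47. The count model listed among the alternatives was not run. Depth limits CD82, and the floor limits PROM1 in p21-/- cells.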
